A study of Mus musculus with 16 samples.

Results

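Skin of mice fed a low aryl hydrocarbon receptor (AhR) ligand diet was compared with skin of control mice, neither treated with 2,4-dinitrochlorobenzene (DNCB), the hapten used elsewhere in the study to induce dermatitis. The comparison was chosen by the treatment label and held 8 of the 16 libraries of the series, 4 in the LowAhR group and 4 in the Cont group. All 8 came from wild-type male C57BL/6N mice that were bought at 3 weeks of age and adapted for 1 week. The Cont group then received normal chow, and the LowAhR group received diet TD130959 for 12 weeks together with paper bedding free of AhR ligands, so diet and bedding cannot be told apart. Each library was 1 skin sample read as 3′ tags (QuantSeq) and counted per gene, with 7080508 to 8773876 counts in total. Levels are given in CPM, counts scaled to a common library total after trimmed-mean (TMM) normalization. Skin was checked by its keratins, and the basal keratins Krt5 (940 to 1462 CPM) and Krt14 (610 to 1030 CPM) and the suprabasal Krt1 (255 to 704 CPM) and Krt10 (1728 to 3047 CPM) were present in every library. The samples were whole tissue, in which fewer cells of a type and less RNA per cell cannot be told apart.

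AhR is a ligand-activated transcription factor that binds plant indoles, tryptophan metabolites and dioxin-like pollutants. With its partner Arnt it binds a short DNA element and induces the Cyp1 monooxygenases that break its ligands down, and the AhR repressor (Ahrr), which competes with it. In skin it is active in keratinocytes, Langerhans cells and T cells and is known for its part in the terminal differentiation of keratinocytes and in the barrier.

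The core of the AhR binding element, GCGTG on either strand, was looked up in the promoters of the AhR genes described here. A promoter was the stretch from 250 bases before to 50 bases after the transcription start in the RefSeq annotation of GRCm38, the assembly that mm10 denotes. The core was present in 8 of the 11 genes of the AhR list that had both a test and a promoter entry (72.7%), in 54.3% of the 10064 tested genes that were not called, in 35.2% of all genes with a promoter entry and in 32.4% of all 32851 promoters. The following 29-base windows show it in capitals for the receptor's partner and repressor, the Cyp1 genes and Tiparp, a feedback regulator of AhR, read along the gene's own strand.
Arnt, chr3:95434349-95434377: ccatagtttgggGCGTGtcttctgcccag
Ahrr, chr13:74292422-74292450: tattgaaagggcGCGTGgcaggcagggac
Ahrr, chr13:74292397-74292425: ggacaaggatgtGCGTGcgccctctgccg
Ahrr, chr13:74292342-74292370: gcggggcggctcGCGTGctggggtggggc
Cyp1a1, chr9:57697547-57697575: tcagataaggagGCGTGgccaacagacac
Cyp1b1, chr17:79715121-79715149: cgtcccgcccctCACGCcccaccccctaa
Tiparp, chr3:65528265-65528293: ctccgtccggagCACGCgcacgggaggcg
The core was present in the promoters of 47.2% of 108 genes called higher and 50.7% of 75 called lower. A match of these letters is a description of the sequence only.

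A gene was called where edgeR's quasi-likelihood test on the 8 libraries gave a Benjamini-Hochberg adjusted p under 0.05. Of 13574 rows tested, 250 were called (1.84%), of which 156 were higher in LowAhR (1.15% of the rows tested) and 94 lower (0.693%). The change was at least 2-fold for 109 of the genes called higher and 55 of those called lower. The median log2 fold change was 1.19 for the genes called higher and -1.06 for those called lower, and 0.02 for all tested rows. In 241 of the 250 genes the 4 LowAhR libraries lay wholly above or wholly below the 4 Cont libraries. This held for 5.96% (above) and 6.11% (below) of all tested rows. The 250 were selected by a test on these same libraries, so their lack of overlap follows largely from the selection. The calls depended on the model. When all 16 libraries were fitted together, edgeR called 0 of 14854 rows (0%), with a lowest adjusted p of 0.0629 and 2031 rows at an unadjusted p under 0.05. All 250 genes kept their direction in that model and 244 of them had an unadjusted p under 0.05. That contrast rests on the same 8 libraries, so neither count is independent support. The biological coefficient of variation was 0.451 in the 8 libraries and 0.54 in all 16. Single libraries mattered as well. Without Cont 2 or without Cont 3 no gene was called by edgeR, while 1962 and 2019 rows had an unadjusted p under 0.05. The count was 33 without Cont 1, 32 without LowAhR 1, 18 without LowAhR 3 and 147 without LowAhR 4. In each of the 8 fits that left out a library, every one of the 250 genes kept its direction. For the 241 genes without overlap this was nearly fixed in advance, so it says little about the calls. Klk6, Rnase2b, Fmo2 and Topbp1, described below, were called in 6 of them.

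Fold change followed transcript length across the transcriptome. Genes with transcripts of up to 1000 nt had a median log2 fold change of 0.50, and 59 of the 775 were called higher and 0 lower. Genes with transcripts over 8000 nt had a median of -0.39, and 25 of the 723 were called lower and 2 higher. The median length was 1232 nt for the genes called higher, 6052 nt for those called lower and 3283 nt for all tested genes. A contrast of short against long genes was computed per library, as the median log2 deviation of genes up to 1000 nt less that of genes over 6000 nt. It was -0.57, -0.47, -0.47 and -0.14 in the 4 Cont libraries and 0.48, 0.37, 0.46 and 0.28 in the 4 LowAhR libraries. The gradient therefore separated the groups without overlap, and it cannot be told apart from the diet. Across 13471 genes Spearman's rho of log2 fold change was -0.345 with length and 0.0316 with GC content, as a description of genes that share the same 8 libraries. When the length trend of each library was removed, 72 genes were called, 50 higher and 22 lower, and 62 of these were among the 250. It ended most of the calls described below, and its result stands beside them.

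**Figure D1:**
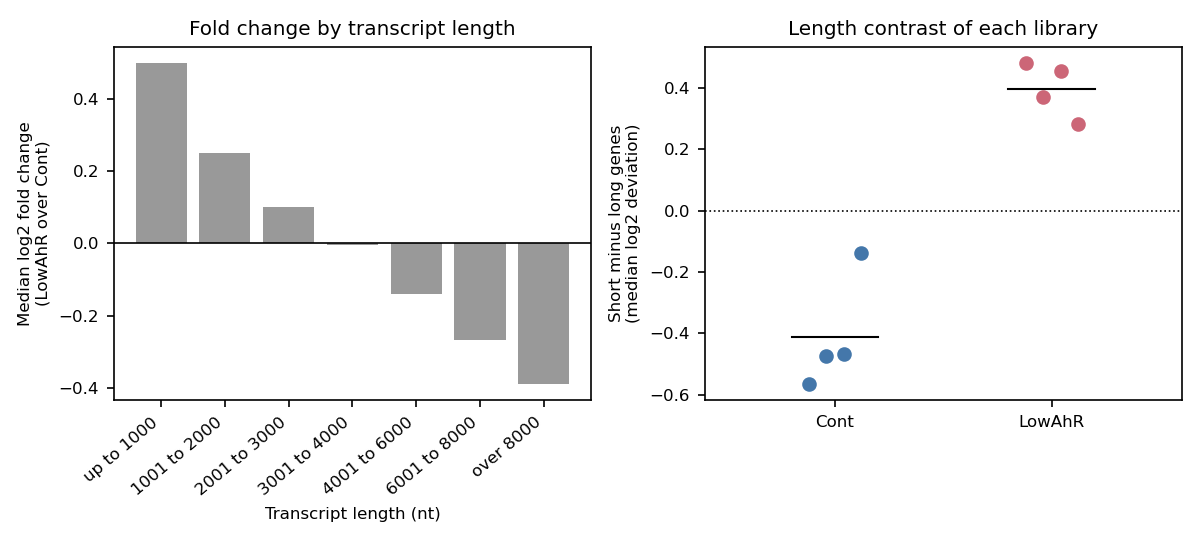
Left, median log2 fold change of LowAhR over Cont (bars) for genes in bins of transcript length in nt, falling from 0.50 for the shortest genes to -0.39 for the longest. Right, the contrast of short minus long genes in log2 units, 1 point per library with a line at the group mean, in which the 4 LowAhR libraries (0.28 to 0.48) all lie above the 4 Cont libraries (-0.57 to -0.14).

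Most genes of the AhR list were lower in LowAhR, and 1 of the 16 tested was called, against 0.693% of all rows called lower. The summed level of the list was 763 to 891 CPM in Cont and 516 to 700 CPM in LowAhR, and the groups did not overlap. Of the 16 tested genes, 13 had a lower level in LowAhR, with a median log2 fold change of -0.45. Ahr, Cyp1a1, Aldh3a1, Nfe2l2 and Fmo2 had no overlap between groups, which held with LowAhR lower for 6.11% of all rows. The other 6 listed genes, among them Cyp1a2 and Il22, did not pass the filter on low counts. The called gene was Fmo2 (chr1:162874317-162898758), a flavin-containing monooxygenase that oxidizes nitrogen and sulphur compounds. Fmo2 was 52.9, 49.3, 46.7 and 37.1 CPM in Cont and 16.9, 18.1, 15.5 and 13.9 CPM in LowAhR. The highest LowAhR library was below the lowest Cont library by a wide gap. Its log2 fold change was -1.53 ± 0.22 (SE, edgeR adjusted p = 0.0147), and it was called also with the length trend removed (-1.47, adjusted p = 0.0252).

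The receptor itself and its classical targets did not pass the edgeR test, and DESeq2 called Ahr (adjusted p = 0.0379) but not Cyp1a1 (0.0565). Ahr (chr12:35497979-35534989) was 52.2, 50.2, 42.0 and 48.5 CPM in Cont and 32.7, 33.1, 28.0 and 20.9 CPM in LowAhR. These groups did not overlap, and the log2 fold change was -0.75 ± 0.22 (edgeR adjusted p = 0.0899). With the length trend removed it was -0.56 (edgeR adjusted p = 0.271). Cyp1a1 (chr9:57687928-57703824), the monooxygenase most closely tied to AhR activity, was 9.58, 24, 11.3 and 11.4 CPM in Cont and 6.87, 3.94, 7.10 and 5.51 CPM in LowAhR. All LowAhR libraries were below all Cont libraries, with a log2 fold change of -1.26 ± 0.42 (edgeR adjusted p = 0.134). Removal of the length trend gave -1.32 for Cyp1a1 (edgeR adjusted p = 0.167). The 2-sided exact permutation p was 0.0286 for Ahr and for Cyp1a1, the smallest that 4 against 4 libraries can give. Ahrr was 9.84, 16.3, 17.1 and 12.1 CPM in Cont and 4.67, 20.5, 2.89 and 4.67 CPM in LowAhR. LowAhR 2 was the highest of the 8 libraries and the other LowAhR libraries were the lowest (log2 fold change -0.76 ± 0.56, edgeR adjusted p = 0.531). Cyp1b1 was 51.1 to 83.4 CPM in Cont and 23.5 to 70.6 CPM in LowAhR, which overlap (-0.48 ± 0.30, adjusted p = 0.453). Aldh3a1, an aldehyde dehydrogenase induced by AhR ligands, was 146 ± 10.4 CPM in Cont and 106 ± 20.9 CPM in LowAhR (SD, n = 4 each, adjusted p = 0.212).

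**Figure D2:**
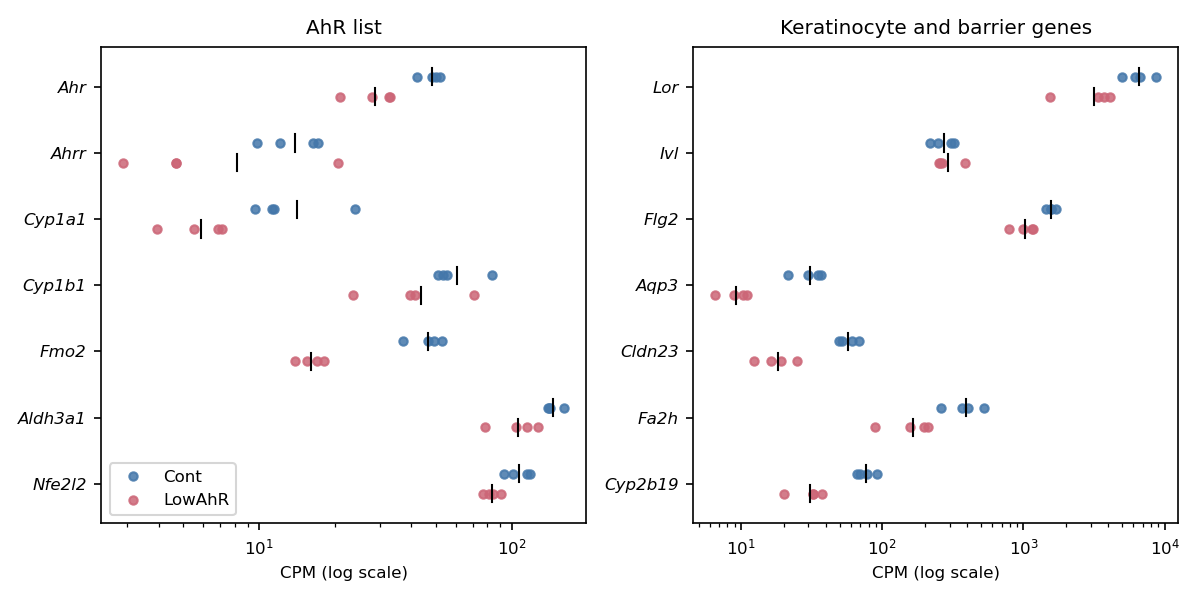
Levels in CPM on a log axis of 7 genes of the AhR list (left) and 7 keratinocyte and barrier genes (right), 1 point per library with a bar at the group mean of 4. Fmo2, Aqp3, Cldn23, Fa2h and Cyp2b19 fell and their groups are separate, Ahr, Cyp1a1, Aldh3a1, Nfe2l2, Lor and Flg2 are separate but did not pass the test, and Ahrr, Cyp1b1 and Ivl overlap.

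Cytochrome P450 genes outside the CYP1 family showed the same direction. Of 28 tested, 22 were lower in LowAhR, while 51.0% of all tested rows were higher. The median log2 fold change was -0.32, and with the length trend removed it was -0.56. Their summed level was 1572 to 2488 CPM in Cont and 688 to 1554 CPM in LowAhR. Cyp26b1, given below, and Cyp2f2 carried most of this sum. Cyp2f2 was 593 ± 193 CPM in Cont and 240 ± 154 CPM in LowAhR, which overlap (edgeR adjusted p = 0.116). One was called. Cyp2b19 (chr7:26757142-26772630), an arachidonic acid epoxygenase of keratinocytes, was 92.3, 69.5, 78.3 and 65.9 CPM in Cont and 32.4, 32.1, 37.7 and 20.2 CPM in LowAhR. The groups were far apart, and Cyp2b19 fell by 1.32 ± 0.23 on the log2 scale (edgeR adjusted p = 0.0237). Cyp2b19 was called also with the length trend removed. Cyp26b1, which inactivates retinoic acid, was 877 ± 250 CPM in Cont and 401 ± 126 CPM in LowAhR (n = 4 each) and did not pass (adjusted p = 0.0557).

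The largest changes among called genes with at least 10 CPM in a group and no overlap joined secreted factors, enzymes and membrane proteins. Lep (chr6:29060221-29073876), which encodes leptin, the satiety hormone of fat cells, was 1.29, 2.25, 8.88 and 15 CPM in Cont and 128, 59.9, 41.9 and 51.2 CPM in LowAhR. Every LowAhR library was above every Cont library, and Lep rose by 3.34 ± 0.62 on the log2 scale (edgeR adjusted p = 0.0285). Rnase2b (chr14:51162260-51163018), of the eosinophil-associated ribonuclease family, was 29.6, 18, 16.1 and 61.4 CPM in Cont and 165, 258, 449 and 220 CPM in LowAhR. It rose by 3.12 ± 0.43 (edgeR adjusted p = 0.0125), and close copies of this family can share reads. Klk6 (chr7:43824438-43832027), a trypsin-like kallikrein protease, was 10.6, 14.2, 17.6 and 16.1 CPM in Cont and 65.9, 50.1, 108 and 113 CPM in LowAhR. The lowest LowAhR library was well above the highest Cont library, and Klk6 rose by 2.52 ± 0.29 (edgeR adjusted p = 0.0125), the lowest p of all rows tested. F5, coagulation factor V, was 3.87 ± 1.83 CPM in Cont and 24.8 ± 6.07 CPM in LowAhR (2.68 ± 0.43, adjusted p = 0.022). Vnn1, a pantetheinase, rose by 2.48 ± 0.46 (adjusted p = 0.0285). The prostaglandin E2 receptor gene Ptger3 rose by 2.30 ± 0.53 (adjusted p = 0.0457). Sncg, gamma-synuclein, which fat cells and neurons express, rose by 2.38 ± 0.40 (adjusted p = 0.0228), and B230118H07Rik by 2.28 ± 0.39 (adjusted p = 0.0228). Krtap19-4 had 18 counts over the 4 Cont libraries and 3174 over the 4 LowAhR libraries, and its fitted fold change depends on the prior count.

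The largest falls were in genes of several kinds. Aqp3 (chr4:41092724-41098183), the water and glycerol channel of basal keratinocytes, was 35.1, 29.8, 36.7 and 21.3 CPM in Cont and 10.3, 11, 6.57 and 8.86 CPM in LowAhR. It fell by 1.74 ± 0.29 on the log2 scale (edgeR adjusted p = 0.0221), with no overlap. Cldn23 (chr8:35824709-35826559), a claudin, which is a protein family of tight junctions, was 51.5, 60.9, 68.1 and 49.7 CPM in Cont and 24.7, 19.3, 16.2 and 12.3 CPM in LowAhR. It fell by 1.67 ± 0.25 (edgeR adjusted p = 0.0178), and LowAhR reached no more than 24.7 CPM against at least 49.7 CPM in Cont. Topbp1, a scaffold of DNA replication and repair, was 33.7 ± 3.87 CPM in Cont and 10.2 ± 2.09 CPM in LowAhR (-1.73 ± 0.26, adjusted p = 0.0178). Rasgrp1, an activator of Ras, was 21.1 ± 5.90 CPM and 6.33 ± 0.731 CPM (-1.73 ± 0.33, adjusted p = 0.0296). Xirp1, an actin-binding protein of striated muscle, varied most within Cont, at 110, 17.9, 67.9 and 33.5 CPM against 7.30 to 14.9 CPM in LowAhR (-2.43 ± 0.47, adjusted p = 0.032). Dmxl2, C1qtnf6, Syn1 and Ubn2 also fell, with log2 fold changes of -1.82 for Dmxl2, -1.65 for C1qtnf6 and -1.64 for Syn1 and edgeR adjusted p from 0.0285 to 0.0453. Of the 10 falls, Aqp3, Topbp1, Cldn23 and Fmo2 were called also with the length trend removed. So were 7 of the 10 rises, all but Krtap19-4, Ptger3 and S100a8.

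**Figure D3:**
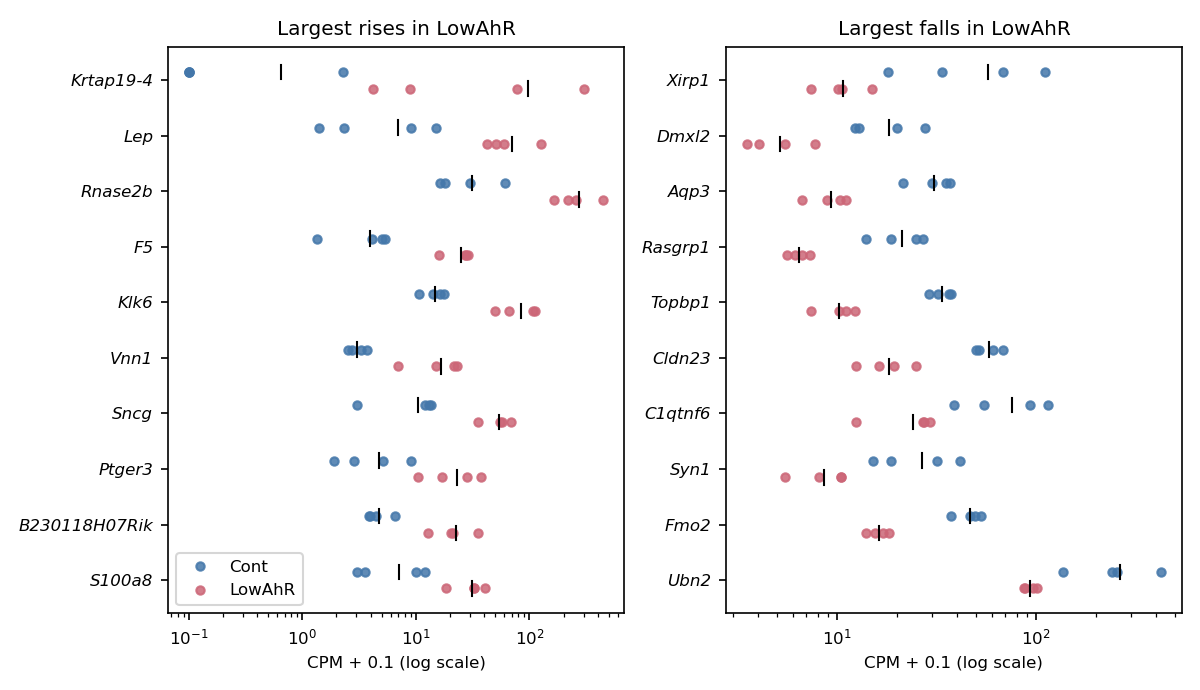
Levels (CPM + 0.1, log axis) of the genes that rose most (10) and fell most (10) by fitted fold change, 1 point per library with a bar at the group mean of 4. In each gene the LowAhR points all lie on 1 side of the Cont points, for example Klk6 at 50.1 to 113 against 10.6 to 17.6 CPM and Fmo2 at 13.9 to 18.1 against 37.1 to 52.9 CPM.

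Fat genes were higher in LowAhR. Of 15 adipocyte genes tested, 5 rose and 0 fell (1.15% of all rows tested were called higher), and the other 10 also had positive log2 fold changes, with a median over the list of 0.99. Adipoq, which encodes the fat-cell hormone adiponectin, was 159, 151, 251 and 301 CPM in Cont and 630, 585, 1131 and 994 CPM in LowAhR. It rose by 1.95 ± 0.28 on the log2 scale (edgeR adjusted p = 0.0147), and the lowest LowAhR library was above the highest Cont library. Fabp4, the fatty acid carrier of fat cells, was 1221, 1253, 1595 and 2762 CPM in Cont and 7447, 4656, 2817 and 3722 CPM in LowAhR. LowAhR 3 and Cont 4 lay close to each other, and the rise was 1.45 ± 0.32 (edgeR adjusted p = 0.0419). Lpl, the lipase that releases fatty acids from lipoproteins, rose by 1.17 ± 0.23 (adjusted p = 0.0333), and Car3, a carbonic anhydrase abundant in fat, by 1.14 ± 0.22 (adjusted p = 0.032). Pparg, the master regulator of adipogenesis, was 14 ± 2.25 CPM in Cont and 18.1 ± 12.0 CPM in LowAhR, and was not called (adjusted p = 0.685). The summed level of the list was 5104, 4282, 6210 and 8126 CPM in Cont and 15530, 11820, 11060 and 11890 CPM in LowAhR, and the groups did not overlap. Adipoq, Lep and Lpl were called also with the length trend removed, and the list median was then 0.89. Without Cont 2 or Cont 3 none of the 15 was called, and without Cont 1, LowAhR 1 or LowAhR 3 only 1 was. Among genes outside the list, Pla2g16, a phospholipase abundant in fat cells, was 131, 140, 135 and 207 CPM in Cont and 412, 399, 468 and 409 CPM in LowAhR (1.46 ± 0.19, edgeR adjusted p = 0.0125). Pla2g16 was called also with the length trend removed. Library sizes computed without fat, muscle and hair follicle genes gave 250 calls, 249 of them shared.

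Haemoglobin genes were higher in LowAhR as well. Of 5 red blood cell genes tested, 4 rose, against 1.15% of all rows called higher, and all 5 had no overlap, against 5.96% of all rows. Hbb-bs, an adult beta-globin, was 244, 346, 332 and 409 CPM in Cont and 1025, 815, 1175 and 803 CPM in LowAhR. The groups were far apart, with a log2 fold change of 1.52 ± 0.21 (edgeR adjusted p = 0.0125). The row Hbb-b1 held nearly the same counts and is not a separate result. Hba-a1, an alpha-globin, rose by 1.32 ± 0.20 (adjusted p = 0.0186), Hba-a2 by 1.86 ± 0.32 (adjusted p = 0.0228) and Hbb-bt by 1.42 ± 0.29 (adjusted p = 0.0343). Globin genes are close copies that can share reads. The list's summed level was 1032 to 1433 CPM in Cont and 2741 to 4315 CPM in LowAhR. Slc4a1, the anion exchanger of the red cell membrane, was under 2 CPM in both group means and was not tested. Globin transcripts are short, and with the length trend removed 1 of the 5, Hbb-bs, was called and the list median went from 1.42 to 1.01.

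Immune markers were mostly at a low level, and the lists for macrophages, eosinophils and neutrophils had non-overlapping sums. Of 11 macrophage genes tested, 1 was called, against 1.15% of all rows called higher, and all 11 log2 fold changes were positive (median 0.65). C1qc, a chain of complement C1q, was 44.9, 90.8, 77.8 and 78.9 CPM in Cont and 154, 180, 113 and 208 CPM in LowAhR. Its groups did not overlap and it rose by 1.16 ± 0.25 (edgeR adjusted p = 0.0374). The summed macrophage level was 577, 1294, 1265 and 1361 CPM in Cont and 1632 to 1826 CPM in LowAhR. C1qc was not called with the length trend removed (0.88, adjusted p = 0.128) nor in any of the 8 fits that left out a library.

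Of 3 eosinophil genes tested, 2 rose, against 1.15% of all rows called higher. Ear2, an eosinophil-associated ribonuclease, was 12.4, 38.8, 25.1 and 29.6 CPM in Cont and 84.3, 74.0, 91.0 and 84.3 CPM in LowAhR (1.65 ± 0.29, edgeR adjusted p = 0.0237). The chemokine receptor gene Ccr3 had 4 counts over the 4 Cont libraries and 226 over the 4 LowAhR libraries, and was called (adjusted p = 0.0343). Ccr3 passed the filter on low counts only through LowAhR, so it could enter this count only as a rise. With the length trend removed Ccr3 was called and Ear2 was not (1.19, adjusted p = 0.0797). The defining granule genes Epx and Prg2 were at 0 CPM and under 1 CPM in both groups. Of 3 neutrophil genes tested, 2 rose, against the same 1.15% of all rows. S100a8, a subunit of calprotectin that keratinocytes also make, was 3.50, 2.91, 9.88 and 11.9 CPM in Cont and 32.3, 32.3, 18.5 and 40.8 CPM in LowAhR (2.13 ± 0.45, edgeR adjusted p = 0.0373). Its partner S100a9 was 19.4 ± 4.19 CPM and 25.2 ± 12.2 CPM (adjusted p = 0.607). Retnlg, a resistin-like protein of neutrophils, had 12 counts over the Cont libraries and 263 over the LowAhR libraries (adjusted p = 0.0385). Retnlg, like Ccr3, passed the filter only through LowAhR. Neither neutrophil call was kept with the length trend removed (adjusted p = 0.126 for S100a8 and 0.086 for Retnlg). The neutrophil granule genes Ngp and Ltf were at 0 counts in all 8 libraries.

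No list gene was called for T cells (11 tested), mast cells (8), dendritic and Langerhans cells (11) or B cells (1). H2-Aa, a class II antigen-presenting molecule, was 368, 728, 878 and 741 CPM in Cont and 974, 1360, 1520 and 1712 CPM in LowAhR. The groups did not overlap, with a log2 fold change of 1.04 ± 0.26 (edgeR adjusted p = 0.0595). The other class II genes went both ways, with H2-Eb1 at 0.93, its counterpart H2-Ab1 at -0.35 (903 ± 239 CPM and 709 ± 98.5 CPM), the invariant chain gene Cd74 at -0.19 and the regulator Ciita at -0.83. Of the 11 dendritic and Langerhans cell genes tested, 4 had positive values. Cd207 (langerin), the defining marker of Langerhans cells, was 11.6 ± 2.80 CPM and 11.05 ± 2.78 CPM (n = 4 each, adjusted p = 0.945). Cd3e was 0.647 to 2.12 CPM in Cont and 1.68 to 6.82 CPM in LowAhR. Cpa3, a mast cell protease, was 68.7 ± 13.7 CPM and 121 ± 30.4 CPM (adjusted p = 0.078). Jchain, made by plasma cells, was 3.06 ± 3.48 CPM and 19.4 ± 14.4 CPM (adjusted p = 0.141). None of the 15 tested genes of the interleukin-4 and interleukin-13 axis was called. Il4ra and Il13ra1, which together form a receptor for both cytokines, had log2 fold changes of 0.29 ± 0.25 and 0.20 ± 0.22 (edgeR adjusted p = 0.599 and 0.703), and Stat3, a downstream transcription factor, -0.10 ± 0.26 (adjusted p = 0.881). Retnla, a gene induced by type 2 cytokines in macrophages and fat, was 226, 847, 516 and 530 CPM in Cont and 1213, 1342, 833 and 2129 CPM in LowAhR. These overlap by 1 library on each side (1.38 ± 0.36, adjusted p = 0.0629). Of 8 inflammatory cytokine and chemokine genes tested none was called, with Il1a, Il1b and Il1rn at log2 fold changes of 0.23, 0.07 and 0.32. Of 22 interferon-stimulated genes, 1 rose, against 1.15% of all rows called higher. It was Ifi27l2a (1.18 ± 0.23, edgeR adjusted p = 0.0301). This gene has a transcript of 463 nt and was not called with the length trend removed (0.56, adjusted p = 0.30).

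**Figure D4:**
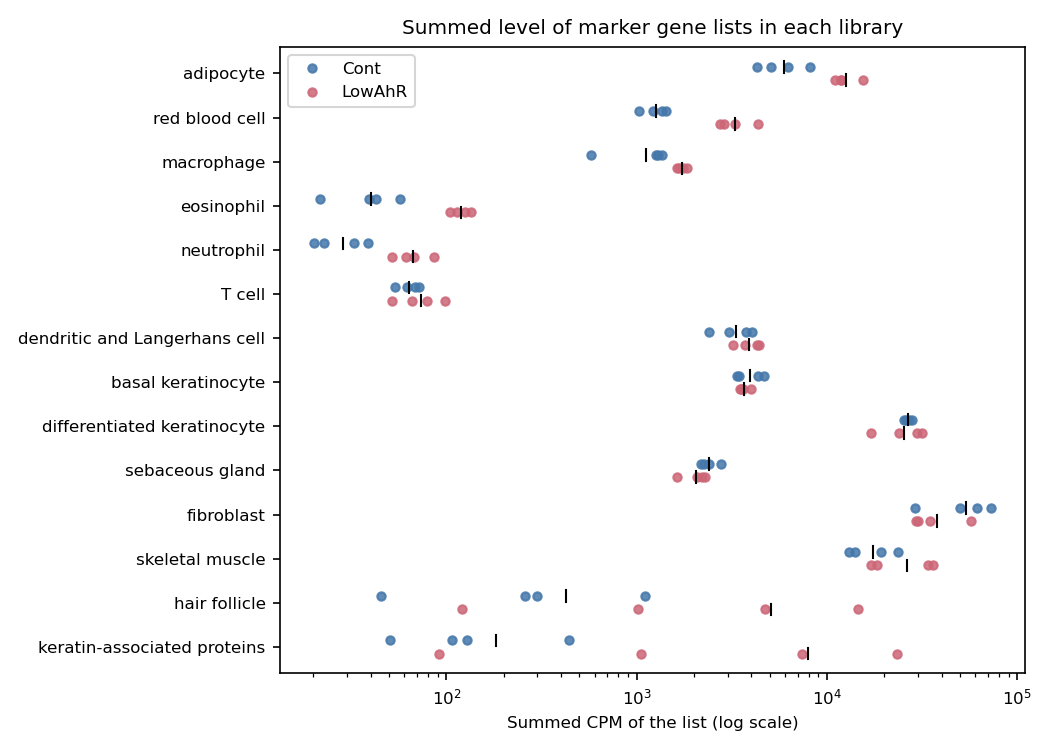
Summed CPM (log axis) of 14 marker gene lists, 1 point per library with a bar at the group mean of 4. The LowAhR points lie above all Cont points for adipocyte (11060 to 15530 against 4282 to 8126), red blood cell, macrophage, eosinophil and neutrophil lists. The groups overlap in the other 9 lists, and the LowAhR points are spread most widely in hair follicle and keratin-associated genes.

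Summed keratinocyte markers overlapped between groups. The summed level of 21 differentiation genes was 25370 to 27910 CPM in Cont and 16990 to 31440 CPM in LowAhR, and that of 10 basal genes was 3376 to 4665 CPM and 3493 to 3966 CPM. None of these genes was called by edgeR, and the medians were 0.07 and -0.36. DESeq2 called 5 of the 21 differentiation genes, 4 of them lower, among them Lor (adjusted p = 0.0018) and Flg2 (adjusted p = 0.0081). Over all 13574 rows DESeq2 called 903, of which 400 were lower. Within the differentiation list Lor, Flg2, Hrnr and Dsg1a were lower in every LowAhR library than in any Cont library, which held for 6.11% of all rows. Lor (chr3:92080271-92083142), loricrin, the main protein of the cornified envelope, was 8689, 6648, 6147 and 5008 CPM in Cont and 4080, 3743, 3357 and 1541 CPM in LowAhR. Its log2 fold change was -1.06 ± 0.28 (edgeR adjusted p = 0.0672), and -1.24 with the length trend removed. Flg2, a filaggrin relative, was 1570 ± 100.3 CPM in Cont and 1028 ± 178 CPM in LowAhR (-0.61 ± 0.18, adjusted p = 0.0902). Flg2 has a transcript of 20803 nt, and its value was -0.09 with the length trend removed. Ivl, involucrin, another envelope protein, was 273 ± 48.4 CPM and 290 ± 65.3 CPM (0.08 ± 0.20, adjusted p = 0.877). Hrnr (hornerin) was 1043 ± 127 CPM and 521 ± 238 CPM (adjusted p = 0.114), and the desmosomal cadherin gene Dsg1a 334 ± 17 CPM and 201 ± 50.4 CPM (adjusted p = 0.0691), both named after their values were seen. In the basal list Itga6, Itgb4, Trp63 and Dst, which serve hemidesmosomes and basal identity, had no overlap (6.11% of all rows), and the lowest adjusted p was that of the integrin gene Itga6 (-0.75 ± 0.18, edgeR adjusted p = 0.0533). Krt5 and Krt14 had log2 fold changes of -0.06 and 0.28.

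Small proline-rich and late cornified envelope genes had no calls among 8 and 19 tested. Sprr1a was 457 ± 182 CPM and 584 ± 137 CPM (adjusted p = 0.587), and Sprr4 had 15 counts over the Cont libraries and 278 over the LowAhR libraries (adjusted p = 0.0629). All tested small proline-rich genes but Sprr2d (-0.20) had positive log2 fold changes. Sprr2h, Sprr2i and Sprr4 had no overlap, with LowAhR higher, against 5.96% of all rows. In Cont the means of Sprr2i and Sprr4 were 0.094 and 0.46 CPM, and both passed the filter on low counts mainly through LowAhR. Late cornified envelope genes had a median log2 fold change of 0.36, which turned to -0.12 with the length trend removed. Lce1a1 was 1920 ± 509 CPM and 1256 ± 369 CPM (adjusted p = 0.222), and Lce1f 84.3 ± 24.2 CPM and 156 ± 45.4 CPM (adjusted p = 0.0904).

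Lipid genes of the epidermis leaned lower. Of 21 ceramide and barrier lipid genes tested, 14 had negative log2 fold changes (median -0.24) and 1 was called, against 0.693% of all rows called lower. Fa2h (chr8:111345138-111393821), which adds the 2-hydroxyl group of skin ceramides, was 523, 403, 369 and 261 CPM in Cont and 157, 197, 212 and 88.8 CPM in LowAhR. It fell by 1.25 ± 0.28 (edgeR adjusted p = 0.0411) with no overlap, and it was not called with the length trend removed (-1.33, adjusted p = 0.0574). Elovl1 and Aloxe3 were not called and had no overlap, at 221 and 141, and 93.6 and 50 mean CPM in Cont and LowAhR. The list's summed level was 2526 to 3131 CPM in Cont and 1804 to 2242 CPM in LowAhR. Of 20 cholesterol synthesis genes, 18 had negative values (median -0.46) and 1 was called, against 0.693% of all rows called lower. Sqle, squalene epoxidase, was 79.1, 74.7, 76.9 and 66.6 CPM in Cont and 50.5, 42.6, 41.0 and 37.2 CPM in LowAhR. It fell by 0.79 ± 0.18 (edgeR adjusted p = 0.0473), and was not called with the length trend removed (adjusted p = 0.116). Fdft1, Lss and Mvd also had no overlap, all lower and not called, with mean levels of 71.3, 26.4 and 18.3 CPM in LowAhR against 89.7, 54.8 and 28.6 CPM in Cont. The summed level was 2003 to 2854 CPM in Cont and 1330 to 1844 CPM in LowAhR. Of 15 fatty acid synthesis genes none was called, and Acly, which makes cytosolic acetyl-CoA, was 128 ± 9.25 CPM and 77.4 ± 12.8 CPM (adjusted p = 0.0557). Of 20 fatty acid oxidation genes none was called, with Cpt1a at -0.74 and Ucp2 at 0.86 (adjusted p = 0.0749 and 0.0655). Sebaceous gland markers gave 1 call of 12 tested, against 1.15% of all rows called higher. It was Awat2, a wax synthase, at 9.71, 16.4, 19.9 and 29.8 CPM in Cont and 96.0, 74.5, 45.6 and 35.0 CPM in LowAhR. Awat2 rose by 1.72 ± 0.37 (edgeR adjusted p = 0.0384). Awat2 was not called with the length trend removed (adjusted p = 0.0797). Of the 12 sebaceous genes 6 had positive values, the median was 0.06, and the keratin gene Krt79 was lower with no overlap (Cont 908 ± 196 CPM, LowAhR 525 ± 85.1 CPM, edgeR adjusted p = 0.061).

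Hair follicle and muscle genes varied widely among libraries of 1 group. The summed level of hair follicle genes was 45.3, 259, 298 and 1108 CPM in Cont and 4742, 120, 1021 and 14520 CPM in LowAhR, and that of keratin-associated proteins of the hair shaft was 50.6, 107, 129 and 438 CPM and 7350, 91.0, 1054 and 23320 CPM. LowAhR 1 and LowAhR 4 were high and LowAhR 2 was as low as Cont. The median log2 fold change was 4.31 over 20 hair follicle genes and 5.35 over 37 keratin-associated genes. Of these genes 1 and 5 were called, against 1.15% of all rows called higher. These were Krt28, Krtap15, Krtap19-2, Krtap19-4, Krtap16-3 and Krtap6-1. The groups did not overlap in Krtap19-4 alone of these. Mean levels in Cont were 0.546 CPM for Krtap19-4, 0.394 for Krtap19-2, 1.73 for Krtap6-1 and 1.70 for Krtap15. Such genes passed the filter on low counts mainly through LowAhR, so both medians lean upward. Without LowAhR 2 the calls among the 37 keratin-associated genes were 32, they were 4 without Cont 4, and they were 0 without any 1 of the other 6 libraries. With the length trend removed none of the 6 genes was called. Skeletal muscle, of which the skin holds a thin sheet, had a summed level of 13070 to 23650 CPM in Cont and 17080 to 36210 CPM in LowAhR. Of 16 muscle genes, 1 was called, against 1.15% of all rows called higher. Myh4, the fast myosin heavy chain, was 546, 394, 473 and 414 CPM in Cont and 1070, 503, 5614 and 5102 CPM in LowAhR. LowAhR 2 lay within Cont, and LowAhR 3 and LowAhR 4 carried most of the difference (2.75 ± 0.59, edgeR adjusted p = 0.0383). Myh4 was called also with the length trend removed (2.94, edgeR adjusted p = 0.0479).

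The ribosomal, respiratory chain and S100 lists hold mostly short transcripts, and the ribosomal list had the most rises of the lists described here. Of 83 cytosolic ribosomal protein genes tested, 13 rose and 0 fell, against 1.15% of all rows called higher. Of the 83, 42 had no overlap with LowAhR higher (5.96% of all rows), and the median log2 fold change was 0.45. Rplp1, of the ribosomal stalk, was 3124, 3657, 3445 and 3800 CPM in Cont and 5956, 5186, 6894 and 5892 CPM in LowAhR, with a clear gap between groups (0.77 ± 0.17, edgeR adjusted p = 0.0387). Rps14 rose by 1.29 ± 0.22 (adjusted p = 0.0233), Rpl34 by 1.03 ± 0.19 (adjusted p = 0.0256) and Rplp2 by 0.97 ± 0.20 (adjusted p = 0.0343). Ribosomal protein genes have many pseudogene copies, and the called rows Rpl37rt and Gm5148 may share their reads. Of 81 genes of the mitochondrial respiratory chain, 4 rose and 0 fell, against 1.15% of all rows called higher, and the median was 0.39. Cox4i1, of cytochrome c oxidase, was 299, 305, 288 and 295 CPM in Cont and 492, 449, 611 and 532 CPM in LowAhR (0.81 ± 0.16, edgeR adjusted p = 0.0343). Uqcrh, Ndufa1 and Ndufa8, of complexes III and I, rose by 0.77, 0.88 and 1.12. Of 12 S100 genes tested, 3 rose, against the same 1.15% of all rows, and all 12 values were positive (median 0.81). S100a6 was 620, 695, 642 and 698 CPM in Cont and 1400, 926, 1083 and 1478 CPM in LowAhR (0.88 ± 0.19, edgeR adjusted p = 0.0374). S100a10, a partner of annexin A2, rose by 0.75 ± 0.16 (adjusted p = 0.0384). The median transcript length was 1094 nt for the ribosomal, 1005 nt for the respiratory and 700 nt for the S100 genes. With the length trend removed the medians were 0.16, 0.06 and 0.28, and 1 ribosomal, 0 respiratory and 0 S100 genes were called.

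**Figure D5:**
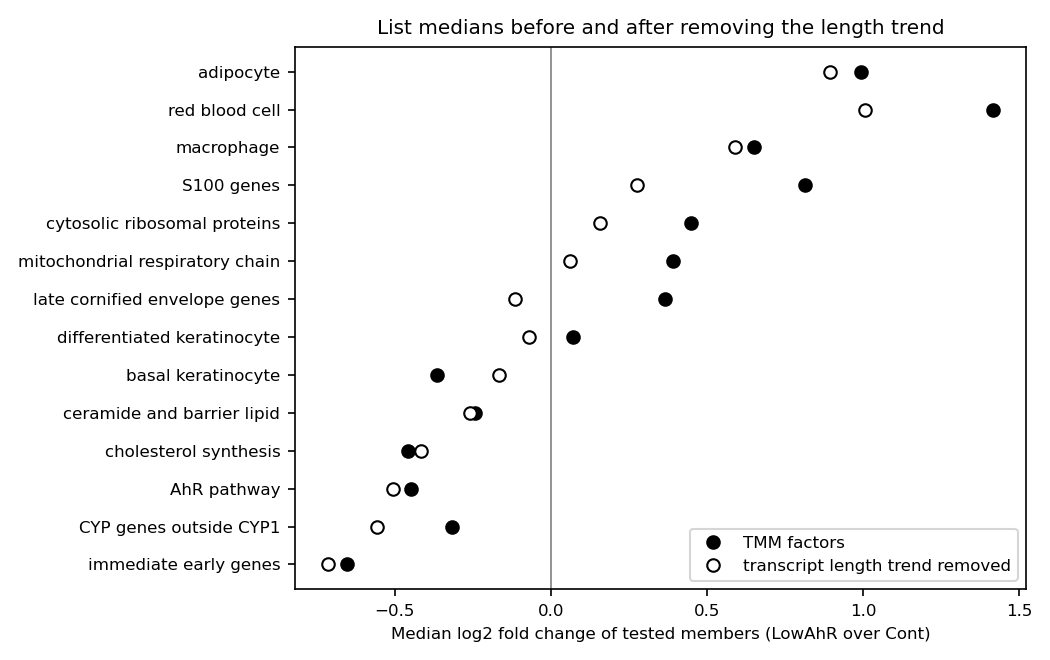
Median log2 fold change of LowAhR over Cont for the tested members of 14 gene lists, with TMM scaling (filled) and with the length trend of each library removed (open). Ribosomal (0.45 to 0.16), respiratory (0.39 to 0.06) and S100 genes (0.81 to 0.28) moved toward 0, while adipocyte (0.99 to 0.89) and AhR genes (-0.45 to -0.51) moved little.

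The most abundant called falls were in long transcripts with 2 exceptions. Nfib and Nfia, transcription factors of the nuclear factor I family, were 754 ± 66.4 and 626 ± 53.7 CPM in Cont and 419 ± 17.2 and 353 ± 42.0 CPM in LowAhR. They fell by 0.85 ± 0.16 and 0.83 ± 0.17 (edgeR adjusted p = 0.0285 and 0.0342). Rora, a nuclear receptor of the clock and of lipid metabolism, was 873, 841, 879 and 962 CPM in Cont and 542, 612, 524 and 371 CPM in LowAhR (-0.79 ± 0.18, adjusted p = 0.0466). Their transcripts are 9116, 9526 and 10878 nt long, and none of the 3 was called with the length trend removed. Huwe1 (chrX:151800785-151935417), a ubiquitin ligase with a transcript of 14579 nt, was 262, 269, 247 and 203 CPM in Cont and 107, 97.1, 93.9 and 98.8 CPM in LowAhR. It fell by 1.30 ± 0.17 (edgeR adjusted p = 0.0125), and by 0.85 with the length trend removed (adjusted p = 0.0433). Nfkbia (chr12:55489409-55492647), which encodes the NF-kB inhibitor IkB-alpha from a transcript of 1578 nt, was 643, 514, 666 and 513 CPM in Cont and 335, 354, 319 and 319 CPM in LowAhR. The groups were well separated, and the fall of 0.82 ± 0.17 (edgeR adjusted p = 0.0343) was 1.02 with the length trend removed (adjusted p = 0.0323). The second exception, the small RNA row Rn4.5s, had no length and fell by 1.39 ± 0.28 (adjusted p = 0.0342). It was called also with the length trend removed, a setting that left rows without a length unadjusted.

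Immediate early genes, which respond within minutes to stimulation or handling, were lower in LowAhR in 13 of 14 tested, none of them called, with a median log2 fold change of -0.65 and -0.71 with the length trend removed. Their summed level was 1888 to 2427 CPM in Cont and 1091 to 1656 CPM in LowAhR. Fosb was 27.4 ± 13.7 CPM and 8.04 ± 5.59 CPM (adjusted p = 0.083), and Egr1 277 ± 73.2 CPM and 119 ± 50.8 CPM (adjusted p = 0.0531). Fos was 39.7 to 126 CPM and 5.51 to 88.7 CPM, which overlap. Klf4, Egr2, Zfp36, Ier3 and Fosb had no overlap, 5 of 14 against 6.11% of all rows. DESeq2 called 5 of the 14 lower, against 400 of all 13574 rows. The remaining lists had no call. They were fibroblast (10 tested), endothelial (10), melanocyte (5) and Schwann cell (6) markers, NRF2 targets and glutathione S-transferases (20), retinoid metabolism (15), cell cycle (20), circadian clock (18), heat shock and unfolded protein response (16), glycolysis (20) and collagens (19). Col1a1 and Col1a2, the chains of type I collagen, had log2 fold changes of -0.96 ± 0.31 and -0.64 ± 0.32 (edgeR adjusted p = 0.127 and 0.334). Nqo1, a target of NRF2 and AhR, was 8.09 ± 1.41 CPM and 6.44 ± 1.74 CPM (adjusted p = 0.767). Among cell cycle genes Mki67 and Top2a were at -0.27 and 0.33. The clock gene Per3 was 12.1 ± 2.87 CPM and 4.30 ± 2.87 CPM (adjusted p = 0.147), with no overlap.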

How the data were processed

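Skin RNA of 8 of 16 libraries was analysed, grouped by GEO's treatment labels. The deposited tables, 1 per library, hold whole-number counts per gene symbol (23282 rows), not normalized by the authors. Per the labels, libraries were made with the QuantSeq 3′ kit, and the submitters' processing notes name Bowtie2, bedtools and mm10, with versions not given in the sources used here. No row lacked a symbol. Counts were filtered (filterByExpr, minimum count 10, minimum total 15, keeping 99.62 to 99.85% of counts), TMM-scaled (factors 0.953 to 1.09) and tested by the quasi-likelihood test of edgeR 4.0.16 (R 4.3.3), LowAhR against Cont, with Benjamini-Hochberg adjustment. DESeq2 1.42.0 and limma 3.58.1 (voom) were alternatives. On simulated counts the fit was tested. The 8-library model, members, lists and tests were chosen with earlier results of these data known, also that the 16-library model called no gene. The removal of the length trend (lowess, span 0.3, longest GENCODE vM21 transcript, 99.2% of tested rows with a length) was added after the data were seen.

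Named genes were the 10 largest rises and falls among called genes with at least 10 CPM in a group and no overlap, 10 genes the study names, up to 4 called members per list (or, with none called, the first 2 tested and that with the lowest p), the 5 most abundant called genes in each direction and the 5 with the lowest p. Genes named only for lack of overlap, and untested members, were picked after their values were seen. A few genes that the rule or lists hold are not reported here. Of the listed genes, 2 were found under other symbols. SE is the log2 fold change over the square root of F. Replicates are separate skin samples, and nothing further says how they were housed. Same-numbered libraries deviated together with r of -0.0513 to 0.0484, so the numbers were not taken to pair them. Replicates differed far beyond counting noise (chi-square per degree of freedom 16.4 to 120). A level of 3 counts is 0.359 to 0.412 CPM.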

Additional observations from a re-analysis of the deposited data

Results flagged for a closer look

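In the 260 groups of 4 libraries examined for the named genes, 22 had a library whose gap to the others exceeded Dixon's 95% critical value, and chance flags about 1 in 20 groups. LowAhR 4 was low in C1qtnf6 (12.3 CPM, the others 26.9 to 29.4) and Rdh1 (16.4 CPM), and high in Dct (106 CPM), Rps14 (2040 CPM, the others 1070 to 1200) and Rpl34 (2070 CPM, the others 1420 to 1490). It also had the largest share of counts in the ribosomal RNA row Rn45s (8.48%, the others 1.68 to 4.73%). LowAhR 1 was low in F5 (15.8 CPM, the others 26.9 to 28.8) and high in Ivl (388 CPM, the others 252 to 263). LowAhR 2 was high in Ahrr (20.5 CPM, the others 2.89 to 4.67). LowAhR 3 was high in Hba-a1 (2690 CPM) and Il1b (21.2 CPM, the others 5.35 to 6.82). Cont 2 was high in Cyp1a1 (24 CPM, the others 9.58 to 11.4) and low in Sncg (2.91 CPM). Cont 3 was high in Cyp1b1 (83.4 CPM), Cd207 (15.8 CPM) and Ccr3 (0.50 CPM, the others 0). Cont 1 was high in Itga6 (251 CPM). Cont 4 was high in Ndufa1 (165 CPM), Pla2g16 (207 CPM), and the hair shaft genes Krtap19-4 (2.18 CPM), Krtap19-2 (1.58 CPM), Krtap6-1 (6.79 CPM) and Krtap15 (6.06 CPM), which were under 1 CPM in the other Cont libraries.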

How the results depend on the processing

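The 250 calls (156 higher, 94 lower) became 0, 0 and 0 with all 16 libraries, 903 (503 and 400) by DESeq2, 438 (291 and 147) without a filter on low counts, 510 (289 and 221) with at least 10 counts in every library, 164 (109 and 55) at 2-fold or more and 72 (50 and 22) with the length trend removed. Robust dispersion gave 367 (211 and 156). With the replicate number as a block, 165 were called, 45 of them lower, and 114 were among the 250. RLE and upper-quartile factors and limma voom gave 252, 246 and 332. Leaving out 1 library gave 0 to 333 calls, 0 to 232 higher and 0 to 101 lower.

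None of the named genes that were called changed direction in any setting, which the lack of overlap in most of them made nearly certain. Uncalled genes did change direction. With the length trend removed the log2 fold change was 0.349 for Acaca, 0.0751 for Fasn, -0.184 for Il1b, -0.0707 for Ivl, -0.115 for Lce1a2, 0.0859 for Mki67, -0.0658 for Sprr1a, -0.0673 for Sprr1b and 0.103 for Stat3. By voom it was 0.0335 for Acaca, -0.0796 for Dct and -0.159 for Il1b, and with the replicate block 0.0308, -0.0916 and -0.14. Library sizes without fat, muscle and hair genes gave 0.00098 for Acaca. Without 1 library in turn the values ran from -0.0866 to 0.199 for Acaca, -0.174 to 0.116 for Cd207, -0.0189 to 0.779 for Cd3d, -0.588 to 0.29 for Dct, -0.507 to 0.0896 for Fasn, -0.0682 to 0.664 for Il1a, -0.64 to 0.274 for Il1b, -0.0864 to 0.174 for Ivl, -0.16 to 0.0507 for Krt5, -0.186 to 0.425 for Mbp, -0.504 to 0.12 for Mcpt4, -0.0164 to 0.359 for Ppara, -0.168 to 0.0387 for Rdh9 and -0.409 to 0.0545 for Stat3. The cause was not tested. Of 42 list medians, 12 moved by more than the spread between replicates with the length trend removed.

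With 4 libraries a group and this spread, a gene that was not called cannot be taken as unchanged.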
